A study of Drosophila melanogaster with 6 samples.

Results

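Larval cuticle proteins form the outer coat of the fly larva, and the 5 genes described here are Lcp1 (CG11650), Lcp2 (CG8697), Lcp3 (CG2043), Lcp4 (CG2044) and Cpr49Ac (CG8502). They are 5 of the 14012 genes, and 6 of the 21081 transcripts, in RNA-seq tables of whole larval brains. The transcripts were found by their CG numbers, and the genes themselves were chosen from their deposited values in these tables, with the differences between groups known. Their levels, changes and deposited p-values are therefore given as a description and not as a test of the group. The cuticle lies on the body surface and lines the tracheae, so these transcripts are not markers of neurons or glia.

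Insect cuticle is an extracellular layer of chitin fibres and structural proteins, secreted by the epidermis and renewed at each moult. Many of its proteins carry the Rebers-Riddiford consensus, a stretch that binds chitin. Lcp1 to Lcp4 are abundant proteins of the cuticle of the third-instar larva, and Cpr49Ac belongs to the same chitin-binding family. Lcp1 and Lcp2 are close copies of each other, as are Lcp3 and Lcp4. Reads shared within such a pair may have been assigned to either gene, so the separate values of paired genes are uncertain.

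RNA was taken from pools of Drosophila melanogaster brains dissected at the wandering stage, in 6 samples of 3 groups with 2 samples each. The larvae grew at 25 °C on food with 35 g of yeast per liter. Every group carried the driver E347-GAL4, which sets the cells that express the UAS transgenes. The control genotype was w, E347-GAL4/w1118 with no UAS transgene, in pools of 100 and 86 brains. The activation group was w, E347-GAL4/yw with UAS-NachBac on the third chromosome, a bacterial sodium channel that raises neuronal excitability, in pools of 100 and 97 brains. The ablation group carried UAS-ShiDN, a dominant-negative dynamin, on the X chromosome marked yw, opposite w, E347-GAL4, and heterozygous on the second chromosome, in pools of 100 and 91 brains. The transgenic groups thus also differ from control in the X chromosome crossed to the driver, yw in place of w1118. The labels do not say that the 2 pools of a group came from separate crosses. The deposited p-values rest on those pools and cannot be taken to measure the spread between crosses. Whole brains were sequenced, so a signal cannot be placed in the E347 neurons, and fewer cells of a type cannot be told apart from less RNA per cell.

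Levels are in FPKM, fragment counts scaled to transcript length and to the number of mapped fragments, with 1 value per group in each of 3 tables, 1 table for each pair of groups. No value per pool is in these tables, so no SD can be given, and whether neighbours in an order of levels differ beyond the spread between pools cannot be said. Depth is unknown. The tissue label was checked with 16 brain markers, which were all at 1 FPKM or more in each group and summed to 984 FPKM in control, 1113 in activation and 1189 in ablation. The sodium pump subunit gene nrv2 and the transcription factor gene pros led that list.

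The 4 Lcp genes lay side by side on chromosome arm 2R, over 7770 bp of build dm3. In the deposited loci Lcp1 spanned 2R:4318139-4318737, Lcp2 2R:4321472-4322080, Lcp3 2R:4322949-4323523 and Lcp4 2R:4325162-4325908. The gaps between them were 2734 bp, 868 bp and 1638 bp. Cpr49Ac lay apart from them on the same arm, at 2R:8274484-8277564, a span of 3081 bp. In the reference annotation (Ensembl, of a later build) Lcp1 and Lcp2 are on the minus strand, and Lcp3, Lcp4 and Cpr49Ac on the plus strand. Each Lcp gene there has 2 exons. Lcp1 codes for 130 codons and Lcp2 for 126, while Lcp3 and Lcp4 code for 112 each. Cpr49Ac is longer, with 7 exons and 294 codons in its RA transcript and 324 codons in its RC transcript.

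In control brains the Lcp genes were among the more abundant transcripts. As the mean of its values in the 2 tables that hold the control group, Lcp1 was at 719 FPKM, rank 160 from the highest of 14012 genes. Lcp4 followed at 370.1 FPKM (rank 268), then Lcp3 at 250.1 FPKM (rank 388) and Lcp2 at 198 FPKM (rank 511). Cpr49Ac was far lower, at 14.6 FPKM (rank 5226). The tables were scaled separately by the authors, and the values of 1 group differed by at most 1.03 times between them for these genes.

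In activation brains the order of the 5 genes was the same and each level was lower. Lcp1 was at 121 FPKM (rank 850), Lcp4 at 47.9 FPKM (rank 2233), Lcp3 at 36.1 FPKM (rank 2906), Lcp2 at 22.0 FPKM (rank 4229) and Cpr49Ac at 4.66 FPKM (rank 7350). In ablation brains Lcp3 stood above Lcp4. There Lcp1 was at 155 FPKM (rank 670), Lcp3 at 133 FPKM (rank 793), Lcp4 at 126 FPKM (rank 839), Lcp2 at 57.5 FPKM (rank 1894) and Cpr49Ac at 3.73 FPKM (rank 7656). The 4 Lcp genes were thus highest in control, lowest in activation and in between in ablation, while Cpr49Ac was lowest in ablation.

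**Figure D1:**
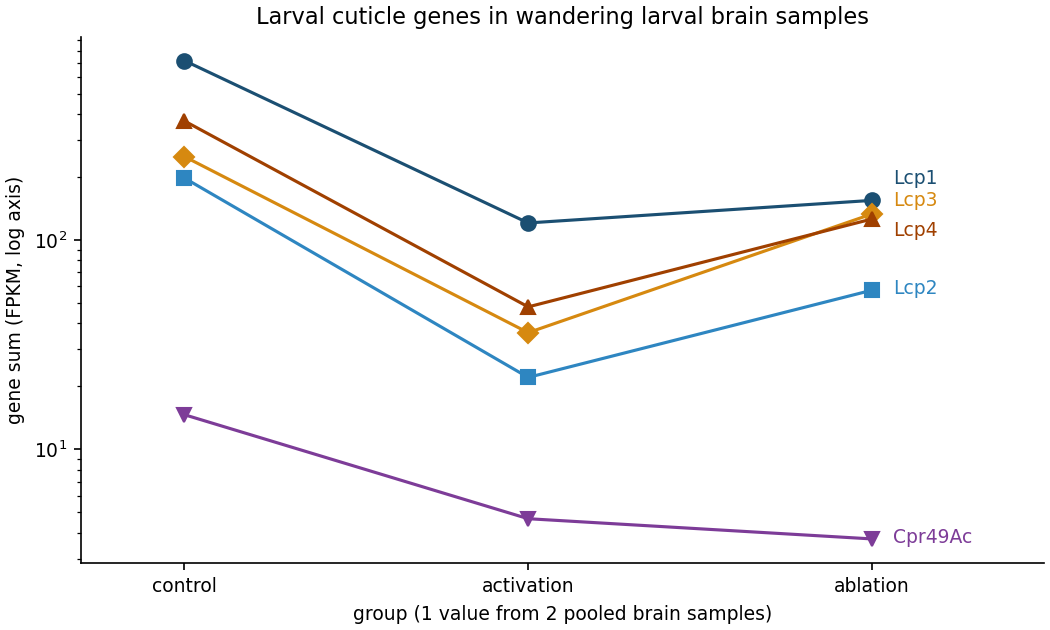
Gene sums of the 5 larval cuticle genes in FPKM (log axis) in control, activation and ablation brains, with 1 point per group and table and no replicate error. Lcp1 is the highest gene in each group, at 719, 121 and 155 FPKM, and all 5 genes are highest in control.

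The first comparison, control against ablation, asks what changes in the brain when the E347 neurons are disabled. All 5 genes had lower gene sums (FPKM added over a gene's transcripts) in ablation than in control. Lcp1 was at 729 FPKM in control and 156 in ablation, 4.67 times lower. Lcp2 was at 200.3 and 58.1 FPKM, 3.45 times lower, and Lcp4 at 375 and 127 FPKM, 2.95 times lower. Lcp3 showed the smallest difference, with 254 FPKM in control and 134 in ablation, 1.89 times lower.

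Cpr49Ac was at 14.8 FPKM in control and 3.77 in ablation, 3.94 times lower. As log2((FPKM + 1)/(FPKM + 1)), on which all changes below are given unless the authors' table is named, the differences were -2.22 for Lcp1, -1.77 for Lcp2, -0.91 for Lcp3, -1.55 for Lcp4 and -1.73 for Cpr49Ac. This scale understates the change of low genes. The median of the 5 genes was -1.73, beside 0.10 over all 8512 tested genes. Genes with at least 1 FPKM in either group were shifted upward by 0.11 as a median, and relative to that shift the median of the 5 was -1.84.

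A lower value in ablation was seen for 43.6% of all tested genes and for 5 of these 5, which were chosen for it. A log2 change of -1 or less was seen for 5.06% of tested genes and for 4 of the 5. The gene just outside that limit was Lcp3, at -0.91, and the gene just inside was Lcp4, at -1.55. Counted from the most negative change, Lcp1 was at rank 62 of 8512, Lcp2 at rank 109, Cpr49Ac at rank 116, Lcp4 at rank 155 and Lcp3 at rank 519.

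By the authors' Cuffdiff test, a transcript is called here when its deposited q-value is at most 0.05. Lower in ablation by that rule were 0.0685% of those tested in the authors' deposited table, among them 1 of the 6 transcripts of these genes. That transcript was Cpr49Ac RA, which had 14.8 FPKM in control and 0.000654 in ablation, for which the authors' deposited table gave q = 0.0324 and p = 5e-05. No p in the deposited tables is smaller, but the test statistic for this call in the authors' deposited table was only -0.0693. With that statistic read as a normal score and adjusted over the table, Cpr49Ac RA was not called and Lcp1 was. At a q threshold of 0.01 no transcript was called. At q of at most 0.05 no Lcp transcript passed by the deposited values.

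For Lcp1 the authors' deposited table gave a log2 fold change of -2.22 with p = 0.00045 and q = 0.181. For Lcp4 the authors' deposited table gave -1.56 with p = 0.0054, and for Lcp2 it gave -1.79 with p = 0.0294. For Lcp3 the authors' deposited table gave -0.92 with p = 0.126, and these last 3 genes had a q of 0.974. At an unadjusted p under 0.05, 0.737% of tested transcripts were lower in ablation in the authors' deposited table, among them 4 of the 6: Lcp1, Lcp2, Lcp4 and Cpr49Ac RA.

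The second comparison, control against activation, asks what changes when the same neurons carry the sodium channel. All 5 gene sums were lower in activation. Lcp2 showed the largest ratio, with 195 FPKM in control and 22.0 in activation, 8.85 times lower. Lcp4 was at 365 and 47.8 FPKM, 7.63 times lower, and Lcp3 at 247 and 36.0 FPKM, 6.85 times lower. Lcp1 was at 709 FPKM in control and 120.4 in activation, 5.89 times lower. Cpr49Ac was at 14.4 FPKM and 4.64 FPKM, 3.10 times lower.

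The log2 changes in activation were -2.55 for Lcp1, -3.09 for Lcp2, -2.74 for Lcp3, -2.91 for Lcp4 and -1.45 for Cpr49Ac. Their median was -2.74, beside 0.10 over all 8514 tested genes, and -2.85 relative to a median shift of 0.11 of genes with at least 1 FPKM. Lower values were found for 43.4% of tested genes, and a change of -1 or less for 4.71%. All 5 genes met both limits. From the most negative change, Lcp2 was at rank 20 of 8514 genes, Lcp4 at rank 23, Lcp3 at rank 26, Lcp1 at rank 34 and Cpr49Ac at rank 186.

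No transcript of any gene was called in this comparison: Cuffdiff passed 0 of 11809 tested transcripts at q of at most 0.05 in the authors' deposited table, so 0% passed as lower, and of these genes 0 of 5 tested transcripts. At an unadjusted p under 0.05 the authors' deposited table held 143 transcripts lower in activation, 1.21% of those tested, and 4 of these 5. They were the transcripts of Lcp1 to Lcp4. In either direction 360 transcripts had such a p, and 8 passed when the deposited statistic was read as a normal score and adjusted, Lcp1 and Lcp4 among them. For Lcp4 the authors' deposited table gave a log2 fold change of -2.93 with p = 0.00015 and q = 0.148, and for Lcp1 it gave -2.56 with p = 0.0002 and q = 0.182. For Lcp3 the authors' deposited table gave -2.78 with p = 0.01025 and for Lcp2 it gave -3.15 with p = 0.01175, both with q = 0.915. For Cpr49Ac RA the authors' deposited table gave -1.63 with p = 0.171 and q = 0.915, and its RC transcript was not tested.

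**Figure D2:**
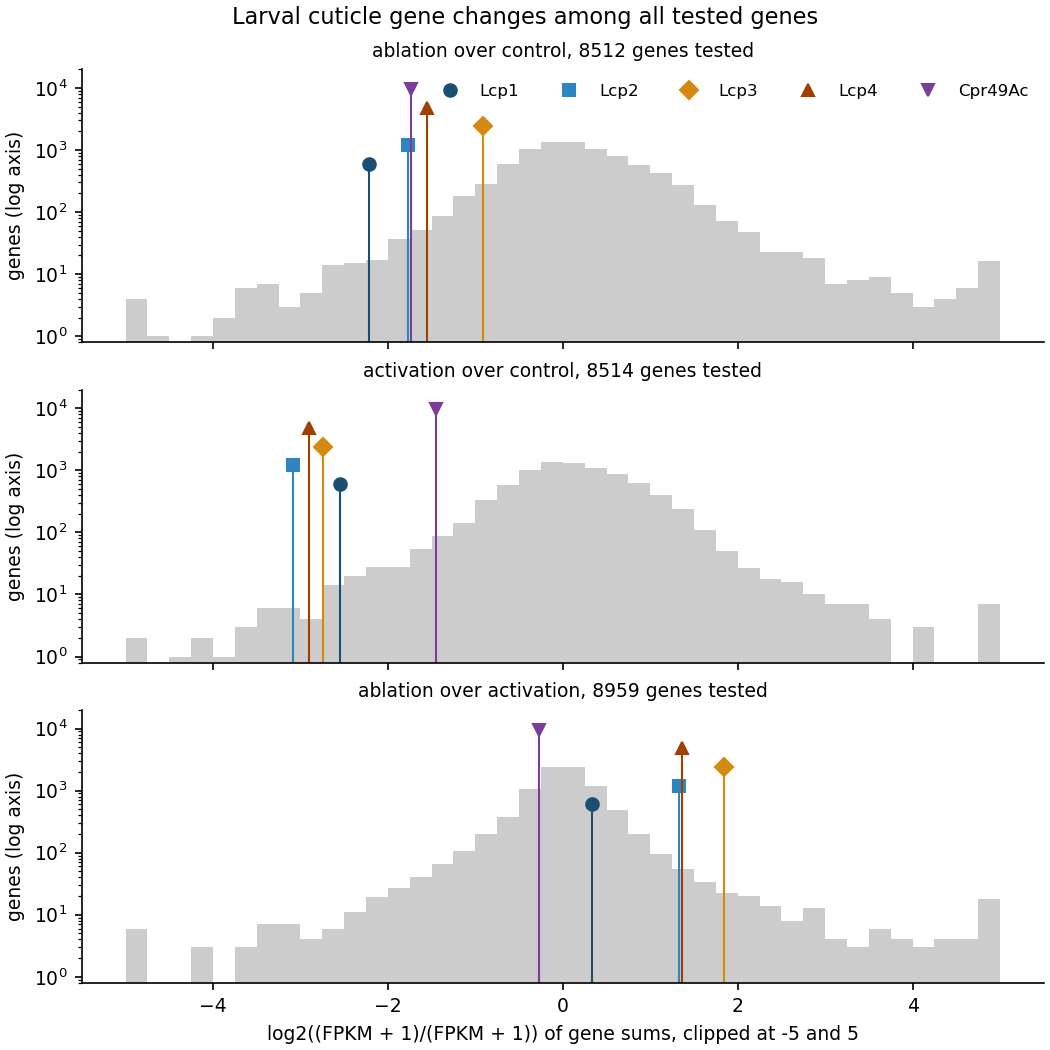
Log2 changes of gene sums, with a pseudocount of 1 FPKM, for all tested genes (histogram) and the 5 larval cuticle genes (marked lines) in the 3 comparisons. The genes lie on the low side in both comparisons with control, between -0.91 and -2.22 in ablation and between -1.45 and -3.09 in activation.

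The comparisons of ablation and of activation with control use the same control samples, so lower values in both are not 2 separate observations. The third comparison sets activation against ablation directly, from a table without the control. Lcp3 was at 36.1 FPKM in activation and 132 in ablation, 3.65 times higher in ablation. Lcp4 was at 48.0 and 125 FPKM, 2.60 times higher, and Lcp2 at 22.1 and 57.0 FPKM, 2.58 times higher. Lcp1 was at 120.7 and 153 FPKM, 1.27 times higher. Cpr49Ac had the opposite sign, at 4.67 FPKM in activation and 3.69 in ablation, 1.27 times lower.

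The log2 changes from activation to ablation were 0.34 for Lcp1, 1.33 for Lcp2, 1.84 for Lcp3, 1.36 for Lcp4 and -0.27 for Cpr49Ac. Their median was 1.33, beside 0.01 over all 8959 tested genes. Higher values in ablation were found for 51.2% of tested genes and for 4 of the 5. A change of 1 or more was found for 3.43% and for 3 of the 5, with Lcp2 just inside that limit and Lcp1 outside it.

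Of 12419 transcripts tested, 0.37% were called in either direction in the authors' deposited table, and none of the 6 transcripts of these genes. With the deposited statistic read as a normal score, 1 of the 6 was called, that of Lcp3. The lowest deposited q among them was that of Lcp3, for which the authors' deposited table gave a log2 fold change of 1.87 with p = 0.0017 and q = 0.264. Lcp4 followed, with a log2 fold change of 1.38, p = 0.00265 and q = 0.346 as the authors' deposited table gives them. For Lcp2 the authors' deposited table gave 1.37 with p = 0.0407 and q = 0.999, and for Lcp1 it gave 0.34 with p = 0.400 and the same q. At an unadjusted p under 0.05, 1.53% of transcripts were higher in ablation in the authors' deposited table, with 3 of these 6, namely Lcp2, Lcp3 and Lcp4. Lower in ablation were 1.68%, with 1 of these 6, Cpr49Ac RA.

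The mix of the 4 Lcp transcripts was also compared between groups. Their summed level was 1558 FPKM in control and 476 in ablation in 1 table, and 1515 FPKM in control and 226 in activation in another, 3.28 and 6.70 times lower than control. In the first of these tables Lcp1 made up 46.8% of the Lcp sum in control, Lcp4 24.1%, Lcp3 16.3% and Lcp2 12.9%. In ablation the shares were 32.8% for Lcp1, 28.2% for Lcp3, 26.7% for Lcp4 and 12.2% for Lcp2. In activation, Lcp1 made up 53.2%, Lcp4 21.1%, Lcp3 15.9% and Lcp2 9.73%. Lcp1 held the largest share in each group, and the share of Lcp3 was higher in ablation than in either other group. These shares have no replicate error and were not tested, and sharing of reads between the paired copies bears on them.

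Cpr49Ac is the only one of the 5 genes with 2 transcripts in the tables. The RA transcript held nearly all of its signal in control, at 14.8 FPKM against 7.08e-05 FPKM for RC in the same table. In ablation the signal stood under RC, at 3.77 FPKM against 0.000654 FPKM for RA. In activation it stood under RA again, at 4.64 FPKM against 0.000135 FPKM for RC. The authors' deposited table of control against ablation gave a log2 fold change of -14.47 with p = 5e-05 for RA, and of 15.70 with p = 0.426 and q = 0.974 for RC. In activation and ablation RA stood at 4.67 and 0.000491 FPKM with p = 0.01345 and q = 0.938, and RC at 0.000108 and 3.69 FPKM with p = 0.226, in the authors' deposited table.

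RA and RC overlap almost completely. In the reference annotation they share 1344 bases, RA has 0 bases of its own and RC has 90, so RC codes for the longer protein. The reference lists 6 transcripts of Cpr49Ac, against 2 in the tables. Fragments from the shared bases could be assigned to either transcript, so the call on RA is uncertain. The gene sum, 14.8 FPKM in control and 3.77 in ablation, differed less than RA alone.

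Other structural cuticle genes were mostly near 0 in these brains. Of 135 further genes (other larval cuticle proteins, Rebers-Riddiford proteins, and Tweedle, obstructor and related proteins), 61 were listed at 0 in every group and 31 reached 1 FPKM in any group. At 10 FPKM or more stood 2 in control and 5 each in activation and in ablation. Their summed level was 111 FPKM in control, 117 in activation and 113 in ablation. The 5 genes summed to 1551, 231 and 475 FPKM in those groups. That was 93.3%, 66.4% and 80.8% of the summed level of the 5 and the 135 genes together. The sum of the 135 was thus nearly level over the groups, and that of the 5 was not.

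Within those lists the genes differed in direction and none had a called transcript. Cpr60D, a Rebers-Riddiford protein, was at 46.3 FPKM in control, 3.13 in activation and 10.7 in ablation, with log2 changes of -3.50 and -2.02 and unadjusted p of 0.106 and 0.213 in the authors' deposited tables. Cpr78E was at 25.8, 15.8 and 18.2 FPKM in the same order. Higher values than in control were found for Cpr51A, at 1.37 FPKM in control, 11.6 in activation and 14.2 in ablation.

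Gasp, a chitin-binding protein of the tracheal lining, was at 2.99, 13.3 and 10.2 FPKM in that order, and is also in the tracheal list below. Pcp, a pupal cuticle protein, was at 3.66 FPKM in control, 20.4 in activation and 4.66 in ablation. Lcp9, the most abundant of 11 other larval cuticle genes, was at 9.19, 10.7 and 13.2 FPKM, and 6 of the 11 were at 0 in every group. Among the 82 other Rebers-Riddiford genes, 8 were tested in ablation against control, 6 with higher and 2 with lower values and a median of 1.06. In activation 6 were tested, 4 higher and 2 lower, with a median of 1.70. Over all 82, tested or not, 20 were higher, 13 lower and 49 equal in ablation, and 28, 14 and 40 in activation. Of all tested genes of the tables, 56.4% were higher in ablation and 56.6% in activation. Of the 42 Tweedle, obstructor and related genes 5 and 4 were tested, with medians of 0.14 and 0.88. A gene at 0 in control can be tested only where the other group is higher, as Cpr49Ag was in ablation. The medians of tested genes in these lists may therefore lean upward, and are no measure of the lists as a whole. Of obstructor genes, which code for chitin-binding proteins, obst-B was at 1.51, 4.24 and 1.77 FPKM and obst-A at 1.61, 3.21 and 1.43 FPKM.

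**Figure D3:**
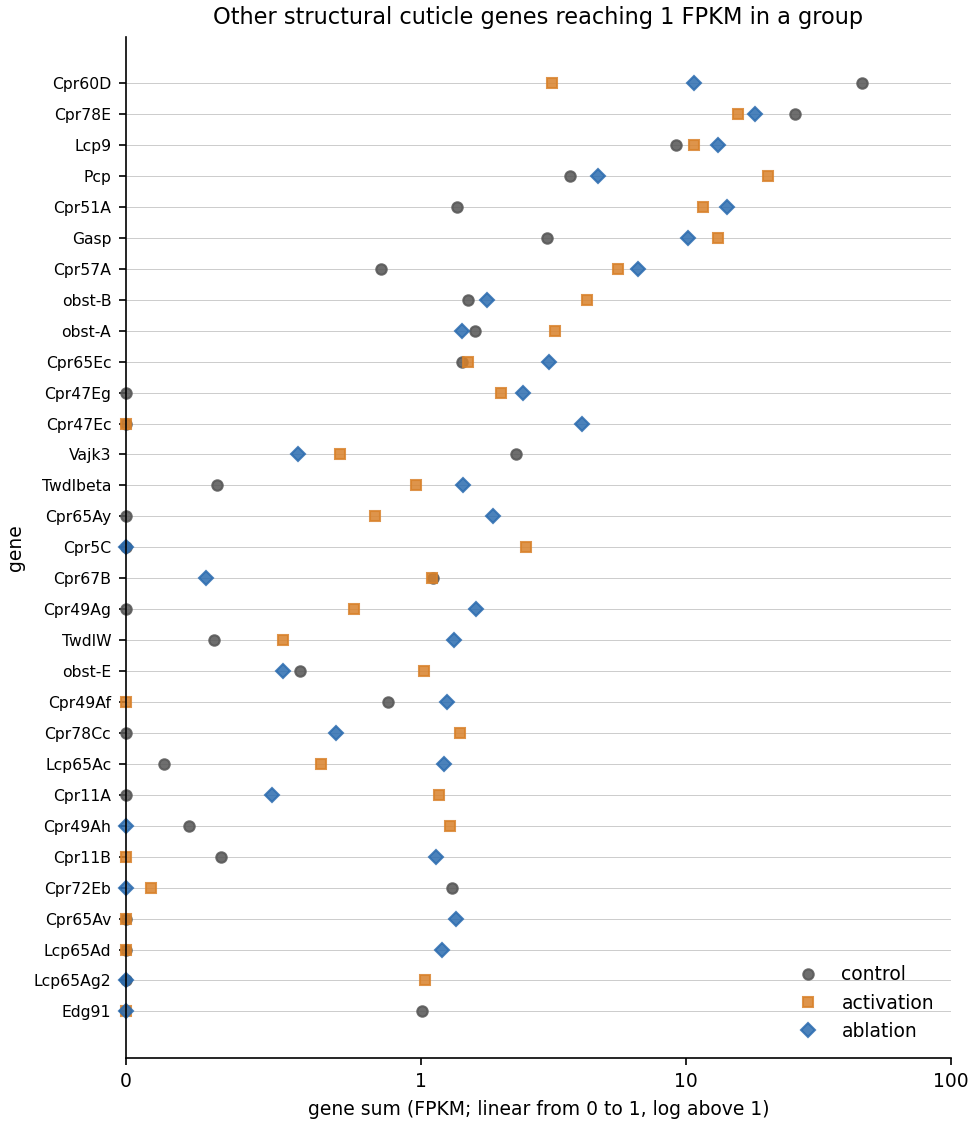
Gene sums of the 31 other structural cuticle genes with at least 1 FPKM in any group, in control, activation and ablation brains. Each gene has 1 value per group, averaged over 2 tables, and the 5 larval cuticle genes are not drawn. Cpr60D has the order of groups seen for the Lcp genes, at 46.3, 3.13 and 10.7 FPKM, while Cpr51A and Gasp are lowest in control.

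Genes that build, remodel or harden cuticle were also examined. Of 38 genes of chitin synthesis and turnover, 26 were tested in ablation against control, 13 with higher and 13 with lower values, with a median log2 change of -0.01. In activation 26 were tested, 14 higher and 12 lower, with a median of 0.05, and none was called in any comparison. The most abundant was Idgf4, a chitinase-like secreted protein, at 538 FPKM in control, 438 in activation and 436 in ablation. Idgf3, of the same family, was at 94.3, 74.1 and 130.0 FPKM.

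Of 25 genes of tanning and pigmentation, 12 were tested in ablation and 11 in activation, with medians of -0.22 and -0.68. Only yellow-e, of the yellow family, had a called transcript: it fell from 5.74 FPKM in control to a value listed at 0 in ablation, with q = 0.0324 in the authors' deposited table. In the activation group yellow-e had a mean level of 0.0231 FPKM. The list summed to 137 FPKM in control, 95.4 in activation and 108 in ablation. Its most abundant gene, speck, was at 61.9, 37.9 and 39.1 FPKM in that order. The dopamine-producing enzyme Ddc was at 7.06 FPKM in control, 13.8 in activation and 21.3 in ablation. The prophenoloxidases PPO2, at 20.4, 9.13 and 11.4 FPKM, and PPO1, at 10.7, 5.82 and 5.66 FPKM, had their highest value in control.

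Of 14 genes of the apical extracellular matrix, 6 were tested in ablation with a median of -0.96 and 7 in activation with a median of -0.09. Sb, a membrane serine protease, fell from 3.50 FPKM in control to a value listed at 0 in ablation with q = 0.0324 in the authors' deposited table, and had a mean level of 0.0636 FPKM in activation. The genes tyn, at 4.10, 9.68 and 10.2 FPKM, and qsm, at 3.80, 7.88 and 6.05 FPKM, were lowest in control. Also among the most abundant of this list, fw, at 6.56, 4.70 and 2.45 FPKM, and pio, at 4.64, 4.24 and 2.30 FPKM, were highest in control.

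Genes listed for tissues that could come along with a dissected brain were summed for the same groups. Whether the brain itself expresses genes of these lists cannot be told from these values. A sum is therefore not a measure of carried-over tissue. Regulators of the epidermis (15 genes) summed to 287 FPKM in control, 329 in activation and 287 in ablation, with f at 0 in every group and sha at 0 in control. Much of that sum was sn, at 154, 183 and 150 FPKM. E(spl)m3-HLH was at 51.1, 39.4 and 31.5 FPKM, shg at 33.1, 36.3 and 36.1 FPKM and NijA at 13.0, 22.9 and 27.7 FPKM. Tracheal genes (15) summed to 121.0, 106 and 83.2 FPKM, with the tracheal regulators trh and dysf at 0 in control and ablation. This sum was highest in control, as were the salivary gland and muscle sums below. Single genes, pck and Sgs8, held much of the tracheal and salivary gland sums in control, so those sums do not describe the lists as a whole. Of the tested tracheal genes 9 of 11 had lower values in ablation than in control, and 6 of 12 in activation. Their median log2 changes were -0.34 and 0.04. The most abundant tracheal gene, pck, codes for a claudin of septate junctions. It was at 60.6 FPKM in control, 30.2 in activation and 29.9 in ablation. The next most abundant, vvl (18.5, 20.8 and 15.6 FPKM), Gasp (2.99, 13.3 and 10.2 FPKM) and verm (6.22, 11.3 and 5.17 FPKM), were highest in activation. Genes of the imaginal discs (15) summed to 148, 172 and 151 FPKM. None of these lists had a called transcript.

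Salivary gland genes (15) summed to 272 FPKM in control and 197 in both other groups, with ng4 and PH4alphaSG1 at 0 throughout. Of those tested, 3 of 9 had lower values in ablation than in control, and 4 of 11 in activation. Their median log2 changes were 0.44 and 0.74, so most were higher than in control. In that list the glue protein gene Sgs8 was at 181 FPKM in control, 17.6 in activation and 59.9 in ablation, the order of groups seen for the Lcp genes. Sgs8 thus held most of the salivary gland sum in control. The glue gene Sgs7 was at 47.1, 37.2 and 86.6 FPKM, and ng3 at 0.202, 75.9 and 1.14 FPKM. Muscle genes (18) summed to 305, 272 and 298 FPKM, of which Tm1 made up 180, 214 and 185 FPKM. Of the tested muscle genes 5 of 12 had lower values in ablation than in control, and 8 of 12 in activation. From activation to ablation 11 of 12 were higher, with a median log2 change of 0.69. The myosin light chain gene Mlc1 was at 26.4 FPKM in control, 3.52 in activation and 6.85 in ablation, and the actin gene Act57B at 29.0, 16.2 and 39.4 FPKM. The part of these tissues in the cuticle values was not tested.

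Fat body genes (10) summed to 182 FPKM in control, 130 in activation and 487 in ablation, with Yp1 at 0 in each. From activation to ablation 5 of them passed as higher: the larval serum protein genes Lsp1alpha, Lsp1beta, Lsp1gamma and Lsp2, and Fbp1. Digestive genes of the midgut (22) summed to 11.3, 6.11 and 1749 FPKM. Jon74E passed as higher in ablation than in control, and LysB, LysD, alphaTry, betaTry and epsilonTry as higher in ablation than in activation. The part of gut or fat body tissue in the cuticle values of the ablation group was not tested. Haemocyte genes (11) summed to 136, 137 and 183 FPKM, and genes of the ring gland (8), the endocrine gland attached to the brain, to 68.7, 69.8 and 65.9 FPKM, with no called transcript in either.

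**Figure D4:**
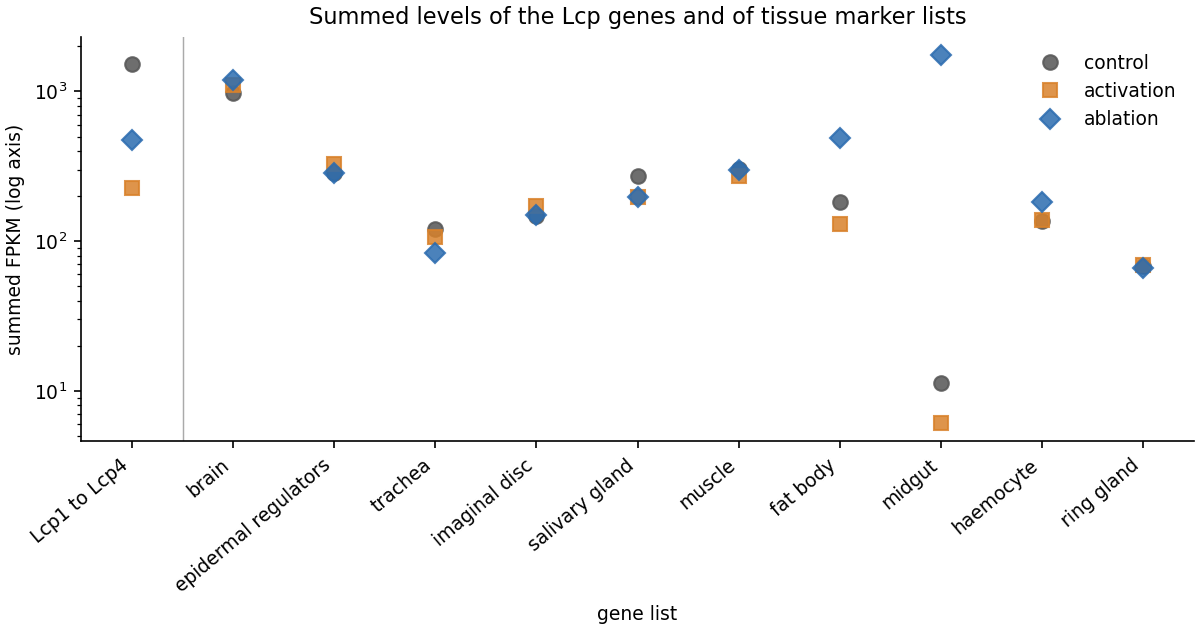
Summed FPKM of the tissue marker lists and of Lcp1 to Lcp4, without Cpr49Ac, in control, activation and ablation brains (log axis). Each list has 1 value per group, averaged over 2 tables, and no replicate error. The Lcp sum is highest in control and lowest in activation, while the midgut list reaches 1749 FPKM in ablation.

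The genes around the Lcp cluster were looked at to see whether the pattern extended along the arm. Within 20 kb of the cluster lay 8 other genes, of which 6 stayed under 1 FPKM in every group, and none was called. The nearest on the Lcp1 side was CSN7, a subunit gene of the COP9 signalosome, at 2050 bp, with 188 FPKM in control, 137 in activation and 125 in ablation. The nearest on the Lcp4 side was Cyp4ad1, a cytochrome P450 gene, at 990 bp, with 0 FPKM in control and in ablation and 0.155 FPKM in activation. Its neighbour Cyp4e2, another cytochrome P450 gene, was at 4.52 FPKM in control, 0.0957 in activation and 0.491 in ablation. The maltase genes Mal-A2 and Mal-A3 and the gene CG2121 were at 0 in each group. No neighbour's locus overlapped an Lcp locus.

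Around Cpr49Ac lay 14 other genes within 20 kb, 6 of them of the Cpr49A family, and none was called. Of the 14, 11 stayed under 1 FPKM in every group and 9 were at 0 in all of them, Cpr49Aa and Cpr49Ab included. Cpr49Ad, the closest at 974 bp, was at 0 FPKM in control and in ablation and 0.766 FPKM in activation. CG8501 was at 4.24, 3.33 and 10.5 FPKM in control, activation and ablation. Cpr49Af was at 0.891, 0 and 1.26 FPKM and Cpr49Ag at 0, 0.776 and 1.62 FPKM, so none of the family neighbours had the levels of Cpr49Ac in control.

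**Figure D5:**
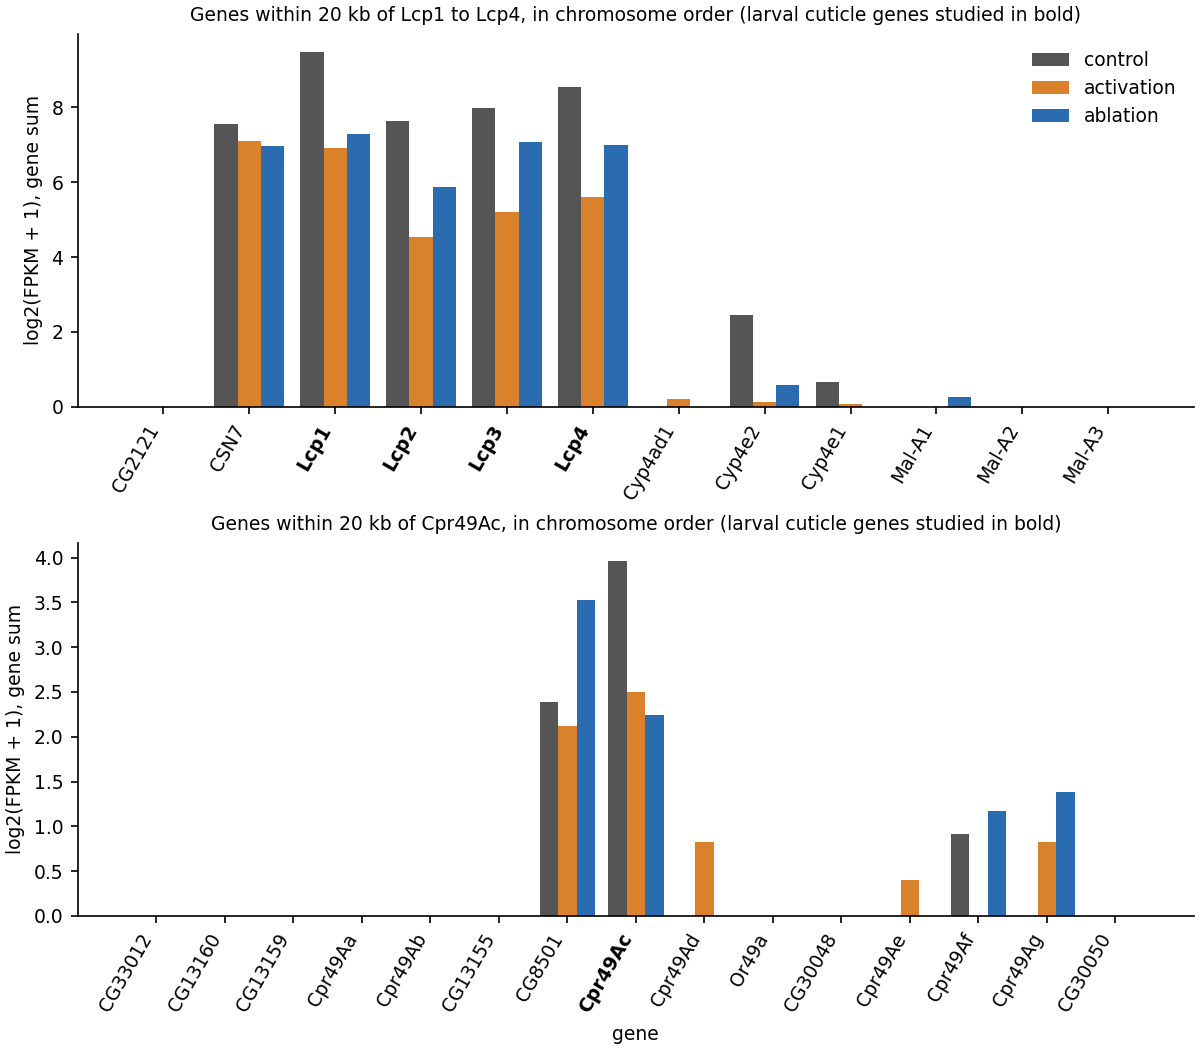
Gene sums, as log2(FPKM + 1), of the genes within 20 kb of the Lcp cluster and of Cpr49Ac, in genomic order and by group. Most neighbours are near 0. The highest, CSN7 at 188, 137 and 125 FPKM in control, activation and ablation, is below all 4 Lcp genes in control and above all 4 in activation.

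Among all 5982 genes with at least 10 FPKM in control, those with a pattern nearest to the Lcp genes were found by the distance between pairs of log2 changes, in activation and in ablation. The centre was the mean of the 4 Lcp genes, -2.82 and -1.61. Lcp4 was nearest to it, Lcp2 at rank 3, Lcp1 at rank 13, Lcp3 at rank 15 and Cpr49Ac at rank 84. The centre was made from the 4 Lcp genes themselves, so their ranks are partly built in and show nothing about them. The 8 nearest other genes were Mettl4, Mlc1, CG14572, Sgs8, CG16863, CG11836, CG5160 and CG11125, at distances of 0.29 to 0.61, and none had a called transcript. Mettl4 was at 17.9 FPKM in control, 2.22 in activation and 5.03 in ablation. CG14572 was at 73.4, 12.7 and 26.2 FPKM. The limit of 10 FPKM was set on control, where the pattern is highest, and most of the 8 genes reached it only there. The likeness rests on 3 group values per gene with a shared control, and says nothing of shared function or control.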

How the data were processed

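RNA-seq values of 6 samples of pooled larval brains were used. Per the submitters' processing notes, TopHat2, Cufflinks and Cuffdiff were used on build dm3, and the sources used here do not give versions, options, strand setting or annotation. Each of 3 deposited tables holds 1 FPKM value per group, scaled within each table. The deposited log2 fold change is the authors' ratio of group values, the deposited test statistic is a score, and each deposited p-value or q-value is from the authors' Cuffdiff test on a group's 2 samples. The q-values, recomputed by Benjamini-Hochberg over tested transcripts, differed by at most 5.15e-07. With neither depth nor replicate values in the tables, no interval or spread is given.

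Calls were tested transcripts with q of at most 0.05. A gene counts as tested where any of its transcripts was. Gene sums, log2 changes with a pseudocount of 1 FPKM, medians and ranks were computed with Python 3.11.15, numpy 2.4.6, pandas 2.3.3 and scipy 1.17.1, and figures with matplotlib 3.10.9, and the adjustment was tested on simulated data. Levels of a group are means over the 2 tables that hold it. Of 14012 genes 12914 were named by locus tag in the reference, 624 by synonym and 474 kept their CG number. Locus starts were counted from 0 and raised by 1, since 630 genes with 1 transcript then matched the reference width, against 186 otherwise. The genes, the 16 lists (271 entries, 11 not found) and the choice of alternatives were made with earlier results of these data known, and 1 entry was left out after values were seen because it had been entered in error. Named beside the 5 genes were list members with a call, up to 4 of the most abundant genes per list, genes within 20 kb, and the 8 genes nearest in pattern. Other genes named at 0 in a list were named after their values were seen. Sequences of these genes are not printed here.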

Additional observations from a re-analysis of the deposited data

How the results depend on the processing

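The median log2 change of the 5 genes kept its direction under 15 of 15 alternative settings (other pseudocounts, centring, the transcript with the highest control value, and values from the other tables). It ranged from -1.84 to -1.53 in ablation against control, from -2.85 to -2.62 in activation against control, and from 1.19 to 1.36 from activation to ablation. All 60 settings for single genes stayed within 1.5-fold of the value given. The count of called transcripts moved under 3 of 15 settings. At a q threshold of 0.01 it was 0 in ablation against control, where it had been 1. When p-values were taken from the deposited statistic as a normal score, it was 2 in activation against control (Lcp1 and Lcp4, from 0) and 1 from activation to ablation (Lcp3, from 0). With the same normal p-values the 1 call in ablation against control was Lcp1 and not Cpr49Ac RA. The cause of these differences was not tested. Over all transcripts, normal p-values gave 10 calls against 18 in ablation against control, 8 against 0 in activation against control and 28 against 46 from activation to ablation. A q threshold of 0.1, or adjustment over the 3 tables together, gave 11 calls in activation against control, and a threshold of 0.01 gave 0 in all comparisons.

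No paired analysis was possible because the tables hold 1 value per group, and leaving out each replicate was not run for the same reason. Precision is limited by 2 pools per group and by a depth that is unknown.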
